A study of Mus musculus with 8 samples.

Results

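Spermatogonial stem cells and their first progeny, the undifferentiated spermatogonia, were followed here through 10 genes that mark or maintain them: *Gfra1*, *Ret*, *Id4*, *Etv5*, *Zbtb16*, *Nanos2*, *Nanos3*, *Lin28a*, *Sall4* and *Bcl6b*. They were taken by gene name from the 55357 genes of the deposited table. All 10 were among the 20187 genes that passed the expression filter, which asked for at least 1 TPM (RSEM's transcript level, corrected for gene length and library size) in at least 1 library. The material was RNA from C57BL/6 germ cells of 15-day males, with 1 library each. The 4 controls were *Mgat2*[F/F], and the 4 conditional knockouts (cKO) were *Mgat2*[F/F]:*Stra8*-iCre. Both groups carried the floxed *Mgat2* allele, and only the cKO carried iCre, which is driven by the *Stra8* promoter in spermatogonia. *Mgat2* encodes the N-acetylglucosaminyltransferase that is needed to make complex N-glycans. Germ cells had been released by collagenase and trypsin digestion and a filter, without a sort for a cell type, so the preparations could hold other testis cells. The comparison asks how these genes were expressed in germ cell preparations of both genotypes, before the tubules of the genotypes look different. Whether the cells that express these genes had lost *Mgat2* was not tested. An effect of iCre itself and one of the deletion cannot be told apart in this design.

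Spermatogonial stem cells renew under glial cell line-derived neurotrophic factor (GDNF), which Sertoli and peritubular cells secrete and which stem cells bind through GFRA1 and the receptor tyrosine kinase RET. Signalling through RET raises the transcription factors ETV5, BCL6B and ID4 in cultured stem cells. ZBTB16 and SALL4 are zinc finger proteins that keep spermatogonia undifferentiated, and NANOS2, NANOS3 and LIN28A are RNA-binding proteins that act on messages or small RNAs in these cells. As spermatogonia commit to differentiation, GFRA1 and NANOS2 are lost, and KIT and STRA8 appear.

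None of the 10 genes passed the main test of the genotype difference, edgeR's quasi-likelihood test at an adjusted p of 0.05, under which 0.0396% of all genes tested were called. At an unadjusted p under 0.05 in edgeR, which 8.9% of all genes reached, there were 2, *Id4* and *Etv5*. DESeq2 called 1 of them, *Id4*, against a background of 1.5% of all genes, and gave *Nanos2* no adjusted p. *Id4* was at 50.8 ± 9.33 CPM (counts scaled to library size, TMM-normalized; mean ± SD, n = 4) in controls and at 36.4 ± 2.01 in cKO germ cells. The other 9 genes had estimates above 0, from a log2 fold change of 0.14 for *Sall4* to 0.52 for *Nanos3*. *Nanos2* is among them although it passed the filter only through 2 cKO libraries. The estimates of *Nanos2* and *Sall4* changed sign in some of the alternative settings given at the end. Among all genes tested, 51.3% had estimates above 0. The median log2 fold change of the 10 genes was 0.20, and that of all genes tested was 0.01.

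*Id4* and *Etv5* had the genotypes apart in every library, in opposite directions, and their promoters are shown for that reason. The sequences are RefSeq's on GRCm38.p6, from 250 bases before to 50 bases after the annotated start, 5′ to 3′ along the gene. The build differs from the one the reads were aligned to, so these positions are not those of the genes given further on. Capitals mark GC boxes (GGGCGG on either strand, bound by SP family factors) and E-boxes (CANNTG, bound by basic helix-loop-helix dimers, whose E proteins ID4 sequesters). The *Id4* promoter lies on the plus strand at chr13:48260866-48261165, and the first of the *Etv5* starts on the minus strand at chr16:22439521-22439820.
Id4: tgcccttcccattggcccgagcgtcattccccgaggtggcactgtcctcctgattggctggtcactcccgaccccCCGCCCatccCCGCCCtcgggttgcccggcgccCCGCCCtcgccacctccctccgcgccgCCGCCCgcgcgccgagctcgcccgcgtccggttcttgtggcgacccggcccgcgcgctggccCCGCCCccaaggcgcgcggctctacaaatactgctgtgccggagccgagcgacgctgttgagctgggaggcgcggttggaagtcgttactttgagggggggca
Etv5: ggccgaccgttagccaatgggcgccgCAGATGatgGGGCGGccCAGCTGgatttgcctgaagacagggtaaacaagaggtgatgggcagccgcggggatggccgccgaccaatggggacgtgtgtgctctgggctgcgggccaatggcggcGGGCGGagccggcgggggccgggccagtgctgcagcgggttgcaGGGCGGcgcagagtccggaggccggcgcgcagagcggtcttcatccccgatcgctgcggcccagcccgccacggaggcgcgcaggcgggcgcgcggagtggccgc
The *Id4* window held 5 GC boxes and no E-box, with 73.3% G and C. That of *Etv5* held 3 GC boxes and 2 E-boxes, with 74.0% G and C, and the window of its other annotated start held neither motif. Of the 32544 windows of equal length in the table, 35.9% held a GC box and 72.3% an E-box. Windows were found for 6 of the 10 genes, 7 windows in all, and 0 of the 7 held the ETS motif CCGGAAG, present in 8.91% of all windows. The nuclear receptor motif AGGTCA, present in 16.2% of all windows, was in 1 of the 7, that of *Nanos2*. A match does not show that a factor binds there.

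*Mgat2*, the deleted gene, was at 69.8, 31.8, 64.3 and 59.8 CPM in control replicates 1 to 4 and at 35.3, 20.1, 37.6 and 16.0 CPM in cKO replicates 1 to 4. Control replicate 2 lay below cKO replicates 1 and 3, so the groups overlapped. The log2 fold change was -1.05, with an adjusted p of 0.47 in edgeR and 0.0252 in DESeq2. Library totals ran from 12584726 to 15907505 expected counts, and 3 counts, taken as the floor of a library, were worth 0.189 to 0.238 CPM. The libraries held other testis cells beside germ cells. All 16 Sertoli cell markers passed the filter, among them *Clu* at 3568 to 4298 CPM, *Wt1* at 227 to 308 CPM, *Sox9* at 123 to 150 CPM and *Amh* at 70.6 to 107 CPM. Their summed level was 10354 to 12731 TPM in controls and 10692 to 13278 TPM in cKO. Leydig cell markers summed to 35.9 to 89.7 TPM in controls and 48.6 to 73.8 TPM in cKO, with *Cyp11a1* at 2.04 to 12.9 CPM. Markers of peritubular, endothelial and blood cells summed to 371 to 503 TPM and 340 to 631 TPM. No marker was at 0 in every library. Replicate 1 of both genotypes stood apart from the other libraries, with *Id1* at 8.28 and 6.57 CPM against 33.05 to 45.6 CPM in the other 6. Values are therefore also given for replicates 2 to 4 alone, for the 10 genes and for some others.

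**Figure D1:**
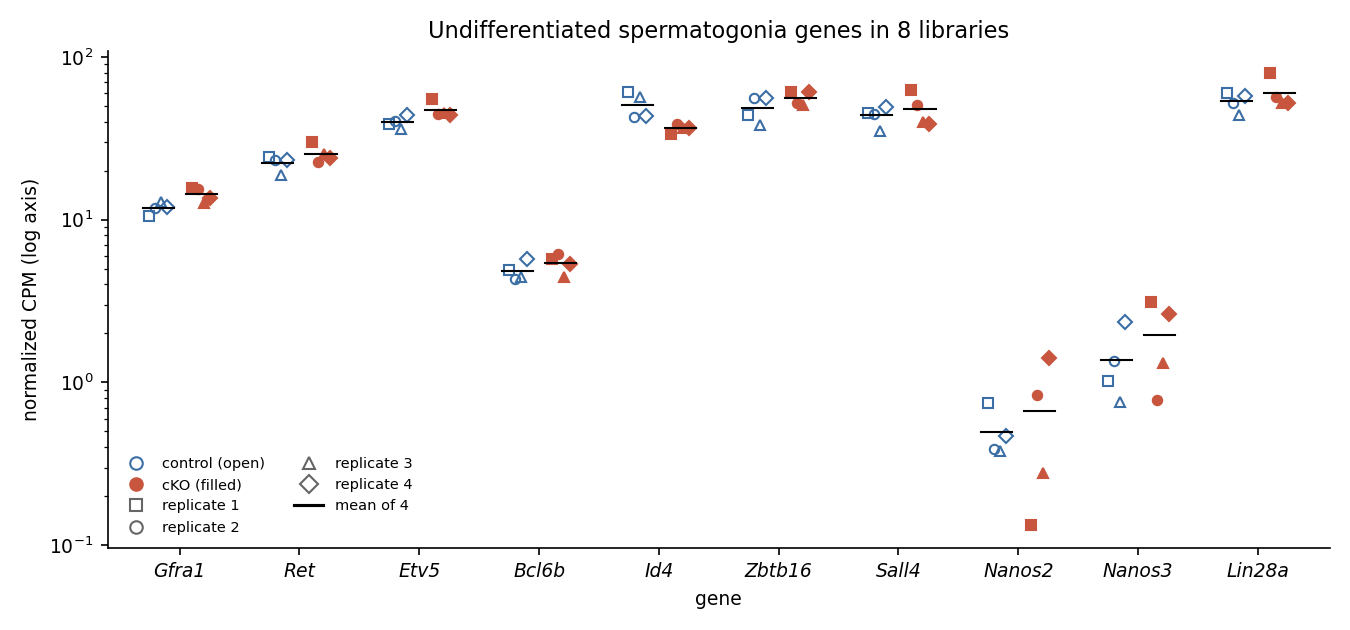
Normalized CPM (log axis) of the 10 genes in each of the 8 libraries, controls open and cKO filled, with a symbol for each replicate number and a bar at the mean of 4. *Id4* is the gene whose 4 cKO libraries all lie below the 4 controls; *Etv5* cKO libraries all lie above, by as little as 44.0 against 43.9 CPM.

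The receptor pair of the stem cell came first. *Gfra1* (chr19:58223212-58444346 on GRCm39, minus strand), which encodes the membrane-anchored GDNF receptor, was at 10.6, 11.7, 12.8 and 12.0 CPM in control replicates 1 to 4 and at 15.6, 15.5, 12.7 and 13.6 CPM in cKO replicates 1 to 4. The highest control exceeded the lowest cKO library by a small margin, and the other 3 cKO libraries lay above every control. The log2 fold change was 0.28 (SE 0.138, 95% interval -0.02 to 0.58), with an adjusted p of 0.581, and the exact permutation test (two-sided, unadjusted) gave p = 0.0571. The smallest value that test can give with 4 and 4 libraries is 0.0286. *Ret* (chr6:118128706-118174769, minus strand), the signalling partner of GFRA1, was at 24.4, 23.2, 18.8 and 23.3 CPM in controls and at 29.9, 22.7, 25.2 and 23.8 CPM in cKO. Here cKO replicate 2 lay below 3 of the 4 controls, and the log2 fold change was 0.18 (SE 0.127, interval -0.10 to 0.46, adjusted p = 0.69).

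Of the transcription factors downstream of GDNF, *Etv5* and *Bcl6b* had estimates above 0 and *Id4* below. *Etv5* (chr16:22200052-22259662, minus strand), an ETS family activator that GDNF induces and that Sertoli cells also transcribe, was at 38.97, 40.3, 36.3 and 43.9 CPM in controls and at 54.8, 44.6, 45.2 and 44.0 CPM in cKO. Every cKO library was above every control, as in 2.47% of all genes tested, but cKO replicate 4 and control replicate 4 were nearly equal and on the TPM scale the groups overlapped, at 15.2 to 19.1 TPM in controls and 18.8 to 22.5 TPM in cKO. The log2 fold change was 0.24 (SE 0.102, interval 0.02 to 0.47), with an unadjusted p of 0.035 in edgeR and an adjusted p of 0.527. Without cKO replicate 1, the highest library, the edgeR log2 fold change was 0.16. *Bcl6b* (chr11:70113871-70120624, minus strand), a BCL6 relative that GDNF also induces, was at 4.89, 4.34, 4.42 and 5.70 CPM in controls and at 5.71, 6.15, 4.47 and 5.32 CPM in cKO. The groups overlapped over most of their range, with a log2 fold change of 0.16 (SE 0.20, interval -0.27 to 0.60, adjusted p = 0.844).

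*Id4* (chr13:48414558-48419502, plus strand), an inhibitor of basic helix-loop-helix factors and a marker of the cells with most stem cell activity, was at 60.9, 42.5, 56.6 and 43.2 CPM in control replicates 1 to 4. In cKO replicates 1 to 4 it was at 33.7, 38.5, 36.4 and 36.8 CPM. All 4 cKO libraries lay below all 4 controls, as in 3.03% of all genes tested, and the controls were spread more widely than the cKO. The log2 fold change was -0.48 (SE 0.125, interval -0.76 to -0.21), a ratio of 0.716 with an interval of 0.592 to 0.864. The exact permutation test gave p = 0.0286, the smallest it can give. In edgeR the unadjusted p was 0.00226 and the adjusted p 0.313, and in DESeq2 the adjusted p was 0.0387. With any 1 library left out the log2 fold change stayed between -0.56 and -0.38 and the adjusted p between 0.141 and 0.812. In replicates 2 to 4 alone, a choice made after the libraries were seen, it was -0.35 with an adjusted p of 0.0392 in edgeR. That fit called 855 of the 20187 genes tested.

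In bulk RNA, fewer cells of a type and less RNA of the gene in each cell cannot be told apart. Of the 15 spermatocyte markers 0 were called by edgeR, 3 had an unadjusted p under 0.05 (8.9% of all genes) and 1, *Piwil1*, was called by DESeq2. Beside *Id4*, 12 of the 15 had estimates below 0 (median -0.19), their summed level was 2667 to 4077 TPM in controls against 2231 to 2346 TPM in cKO, and none was at 0 in every library. *Piwil1*, the PIWI protein of pachytene spermatocytes, was at 645, 206, 309 and 168 CPM in controls and at 155, 58.2, 64.9 and 43.5 CPM in cKO. *Ybx2*, a germ cell RNA-binding protein, was at 607, 300.4, 322 and 206 CPM in controls and at 205, 119, 136 and 133 CPM in cKO. Among the controls *Id4*, *Piwil1* and *Ybx2* shared the 2 highest libraries, replicates 1 and 3. Among the cKO, replicate 1 was the highest for *Piwil1* and *Ybx2* and the lowest for *Id4*. The other large estimates were those of *Ldhc* (-1.95), *Spag6l* (-1.88) and *Pgk2* (-1.72), genes of late spermatocytes and sperm, with adjusted p-values of 0.593 to 0.753. The part of spermatocytes in the *Id4* difference was not tested. The early meiotic gene *Sycp3*, of the synaptonemal complex, was at 181, 249.9, 319 and 236 CPM in controls and 187, 236, 245 and 257 CPM in cKO, with overlapping groups. Estimates for other genes of early meiosis lay on both sides of 0. *Spo11*, which makes the meiotic double-strand breaks, was at 28.1, 35.3, 43.1 and 30.4 CPM in controls and at 20.3, 21.03, 23.6 and 29.1 CPM in cKO, with a log2 fold change of -0.54 (SE 0.156), the smallest unadjusted edgeR p of the spermatocyte list (0.00453) and an adjusted p of 0.35. *Dmc1*, the recombinase that repairs them, was at 43.2, 70.9, 75.4 and 67.8 CPM in controls and at 67.2, 79.4, 88.4 and 87.4 CPM in cKO, with a log2 fold change of 0.33 (SE 0.164, adjusted p = 0.599). In replicates 2 to 4 alone both were called, at -0.57 for *Spo11* and 0.25 for *Dmc1*, with adjusted p-values of 0.0157 and 0.0447. They were among 855 of the 20187 genes tested that this fit called. *Id4* overlaps *Gm49291*, on the other strand, over 10.3% of its exon bases, and the libraries did not keep strand. That gene was assigned 3 to 24 counts a library against 507 to 897 for *Id4*.

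**Figure D2:**
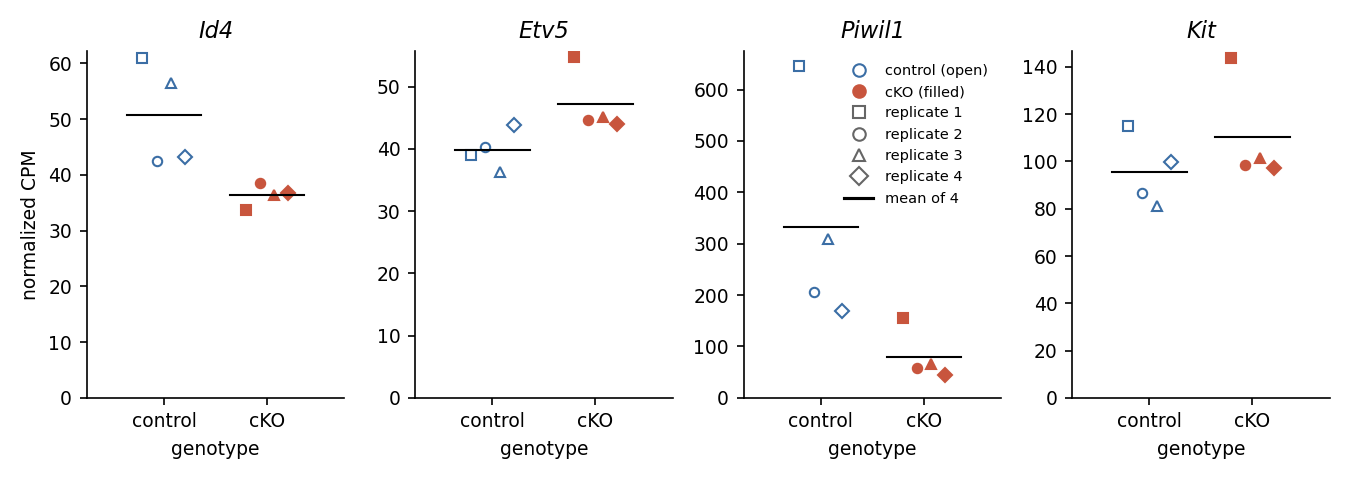
Normalized CPM of *Id4*, *Etv5*, the spermatocyte gene *Piwil1* and the differentiation marker *Kit* in each library, on axes that start at 0, with symbols for the replicate number and bars at the mean of 4. Control replicate 1 is the highest control for *Id4* (60.9 CPM), *Piwil1* (645 CPM) and *Kit* (115 CPM). Among the cKO, replicate 1 is the highest for *Etv5* (54.8 CPM), *Piwil1* (155 CPM) and *Kit* (144 CPM) and the lowest for *Id4* (33.7 CPM).

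The relatives of ID4 were low in replicate 1 of both genotypes. *Id1*, *Id2* and *Id3* encode inhibitors of the same class, and *Id2* was at 30.6 CPM in control replicate 1 and 22.04 CPM in cKO replicate 1 against 81.1 to 106 CPM in the other 6 libraries. *Id3* was at 16.4 and 20.2 CPM in those 2 libraries and at 43.8 to 63.7 CPM in the others. Their log2 fold changes between genotypes were 0.10, 0.07 and 0.22 for *Id1*, *Id2* and *Id3*, with adjusted p-values from 0.931 to 0.987. *Id4* did not share the low values of both replicates 1, since it was highest in control replicate 1 and lowest in cKO replicate 1. *Id1* and *Id2* were named for this pattern once it had been seen.

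The zinc finger repressors overlapped between genotypes. *Zbtb16* (chr9:48563141-48748664, minus strand), known as PLZF, was at 44.3, 55.6, 37.9 and 56.1 CPM in controls and at 60.7, 52.1, 50.9 and 61.0 CPM in cKO. Control replicates 1 and 3 were low and the other controls lay within the cKO range, with a log2 fold change of 0.21 (SE 0.13, interval -0.07 to 0.50, adjusted p = 0.655). *Sall4* (chr2:168590252-168609863, minus strand) was at 45.6, 44.6, 35.3 and 49.6 CPM in controls and at 62.5, 51.0, 39.7 and 38.9 CPM in cKO. Its cKO libraries ran from within the control range to above it, and its log2 fold change of 0.14 (SE 0.16, interval -0.22 to 0.49, adjusted p = 0.834) was -0.017 without cKO replicate 1.

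Among the RNA-binding proteins, *Lin28a* (chr4:133730641-133746173, minus strand), which blocks maturation of let-7 microRNAs, was at 60.2, 52.3, 43.8 and 57.4 CPM in controls and at 79.3, 56.8, 52.4 and 51.8 CPM in cKO. Apart from replicate 1 the cKO libraries lay within the control range, and the log2 fold change of 0.17 (SE 0.147, interval -0.15 to 0.49, adjusted p = 0.754) was 0.01 without that library. *Nanos3* (chr8:84900360-84911846, minus strand), a translational repressor of progenitors, was at 1.02, 1.36, 0.758 and 2.34 CPM in controls and at 3.12, 0.777, 1.33 and 2.62 CPM in cKO, from 12 to 47 counts a library. The groups overlapped, with a log2 fold change of 0.52 (SE 0.488, interval -0.54 to 1.59, adjusted p = 0.78). *Nanos2* (chr7:18721325-18722887, plus strand), the repressor that holds stem cells in their most primitive state, had rounded counts of 11, 6, 6 and 6 in controls and of 2, 13, 4 and 20 in cKO, with cKO replicate 1 at or under the floor of 3 counts. It reached 1 TPM only in cKO replicates 2 and 4 and is in the test through them. Its highest and its lowest library were both cKO, and the interval of its log2 fold change, -1.11 to 1.95 around 0.42 (SE 0.702), was too wide at this depth to tell a rise from a fall. A gene on the other strand, *Gm45058*, covers 49.0% of its exon bases and was assigned at most 3 counts a library.

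**Figure D3:**
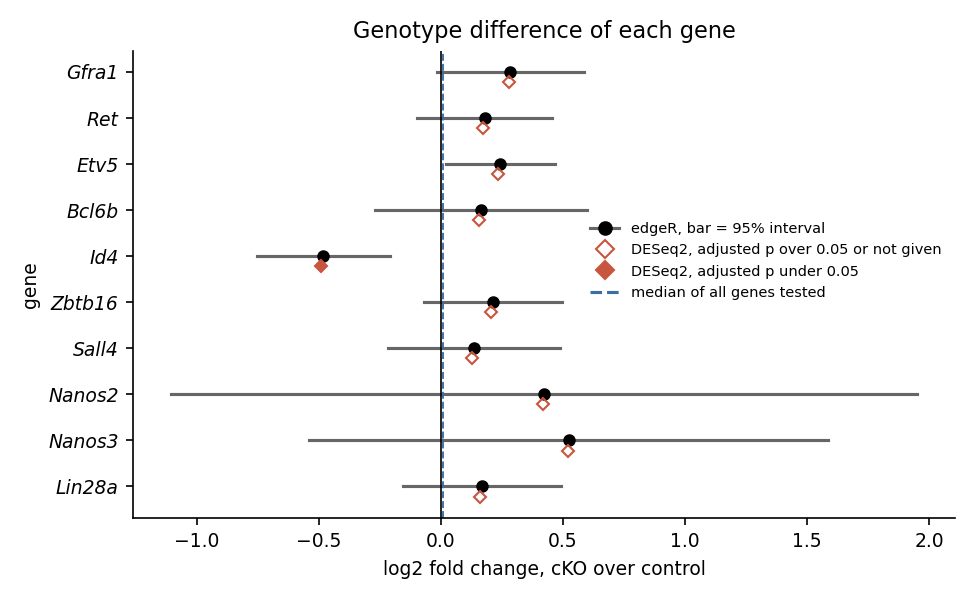
Log2 fold change (cKO over control) of the 10 genes from edgeR with its 95% interval, and from DESeq2 (diamonds, filled where the adjusted p was under 0.05). *Id4* is the filled diamond, its edgeR interval runs from -0.76 to -0.21, and the intervals of *Nanos2* and *Nanos3* are the widest.

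Several of the 10 genes shared their highest and lowest libraries. cKO replicate 1 was the highest library for 6 of them, *Gfra1*, *Ret*, *Etv5*, *Nanos3*, *Lin28a* and *Sall4*, and control replicate 3 was the lowest for 6, *Ret*, *Etv5*, *Zbtb16*, *Nanos3*, *Lin28a* and *Sall4*. The same 2 libraries held the highest and lowest values of *Kit*, the receptor of differentiating spermatogonia, at 144 and 81.2 CPM. In replicates 2 to 4 alone edgeR estimates were 0.19 for *Gfra1*, 0.14 for *Ret*, 0.15 for *Etv5*, 0.13 for *Zbtb16* and 0.15 for *Bcl6b*. There they were 0.10 for *Nanos3*, 0.07 for *Lin28a* and 0.01 for *Sall4*. Each of these was below the estimate from all libraries, while that of *Nanos2*, a gene of few counts, was above it at 1.03. Across the 8 libraries 30 of the 36 pairs of genes without *Id4* had a positive Pearson correlation of log2 CPM, with a median of 0.55. Of the 9 pairs with *Id4* 1 was positive, and the median was -0.60. These counts and correlations are a description over 8 libraries that share the genotype difference and the depth of each library. The shares among all genes or other pairs of genes were not computed, so the pattern is not shown to be particular to the 10. The genes that were not in the list and followed the mean standardized log2 CPM of the 10 most closely were *Dph7* (Pearson r = 0.965 over 8 libraries), *Epop* (0.956), *Ahcy* (0.951), *Bnc2* (0.949) and *Rtn4rl2* (0.947). They were picked as the highest r among all genes tested over 8 libraries, so high values follow from the choice and show no link to the 10. *Dph7* ran from 7.27 CPM in control replicate 3 to 14.1 CPM in cKO replicate 1.

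Levels per gene length were compared in TPM over all 8 libraries. *Lin28a* was the highest, at a mean of 28.5 TPM (range 21.0 to 39.2), followed by *Zbtb16* at 21.0, *Id4* at 19.0, *Etv5* at 18.4 and *Sall4* at 17.6. *Gfra1* at 8.74, *Ret* at 8.61, *Nanos3* at 6.41 and *Bcl6b* at 3.73 TPM followed, and *Nanos2* was the lowest at 0.719 (range 0.13 to 1.80). Of the 9 neighbouring pairs in that order 3 differed in an exact sign-flip permutation test on log2(TPM + 1), two-sided and adjusted over the 9 pairs. *Lin28a* was above *Zbtb16* in 8 of 8 libraries (adjusted p = 0.0352), *Sall4* above *Gfra1* in 7 of 8 (adjusted p = 0.0469) and *Bcl6b* above *Nanos2* in 8 of 8 (adjusted p = 0.0352). Within *Zbtb16*, *Id4*, *Etv5* and *Sall4* no neighbouring pair differed in this test, nor within *Gfra1*, *Ret*, *Nanos3* and *Bcl6b*. Genes that were not neighbours were not tested against each other. Of these, *Ret* ran from 6.75 to 10.57 TPM and *Bcl6b* from 2.22 to 6.01 TPM. The place of *Gfra1* before *Ret* rested on cKO replicate 4, since *Gfra1* was above *Ret* in that library alone.

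In cKO replicate 4 the deposited TPM and count of *Gfra1* parted. That library had 192 counts of *Gfra1*, within the range of 154 to 239 of all libraries, but 29.76 TPM against 4.17 to 8.36 TPM in the other 7. The ratio of TPM to CPM, which rests on the transcript length that RSEM gave the gene in each library, varied 5.89-fold for *Gfra1* and 2.79-fold for *Bcl6b* and at most 1.39-fold for the other 8. On the TPM scale the estimate for *Gfra1* was 0.79 (log2(TPM + 1), limma-trend, adjusted p = 0.691) in place of 0.28 on counts.

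**Figure D4:**
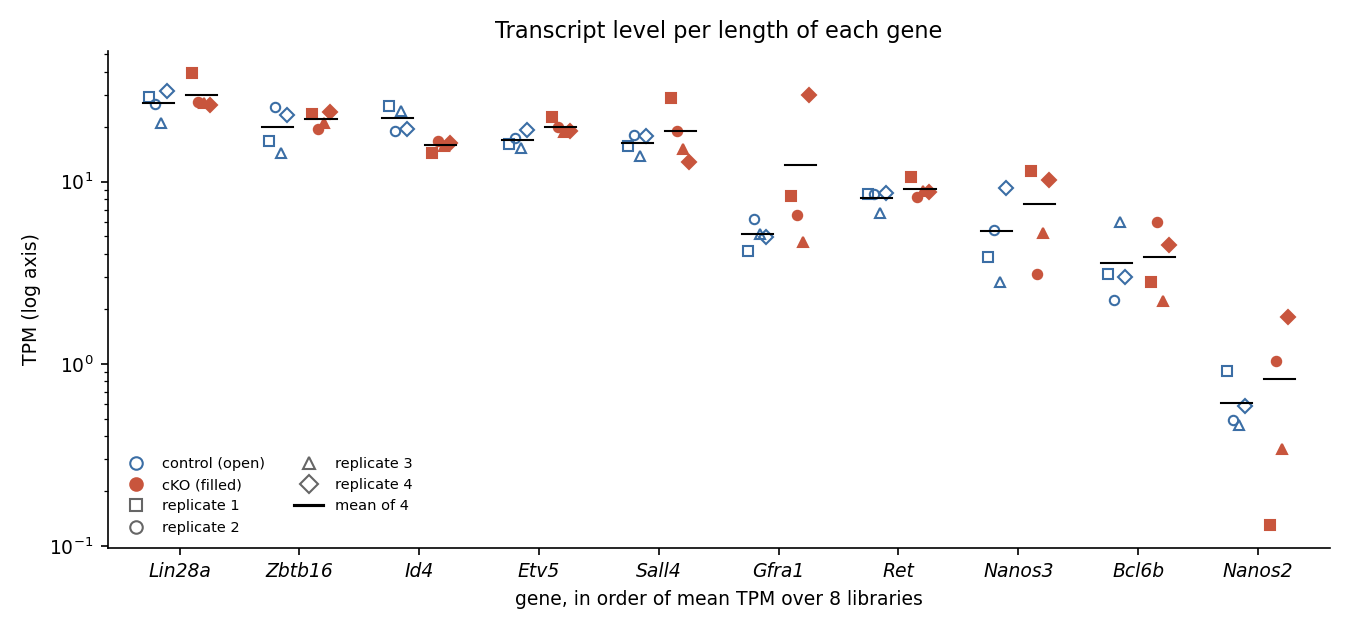
Deposited TPM (log axis) of the 10 genes in each library, in order of their mean over the 8 libraries, with controls open, cKO filled and bars at the mean of 4. The *Gfra1* point of cKO replicate 4 stands at 29.76 TPM, above the other 7 libraries at 4.17 to 8.36 TPM.

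Other genes of undifferentiated spermatogonia were taken as a list of 37, of which 35 were tested and 0 were called by edgeR or DESeq2. For *T* and *Thy1* DESeq2 gave no adjusted p. At an unadjusted edgeR p under 0.05, which 8.9% of all genes reached, there were 3, all higher in cKO. Of the 35 genes 30 had estimates above 0, with a median log2 fold change of 0.16 against 0.01 over all genes. *Cdh1*, the E-cadherin of undifferentiated spermatogonia, was at 5.43, 5.83, 5.31 and 6.48 CPM in controls and at 6.84, 8.54, 9.56 and 9.86 CPM in cKO. Every cKO library was above every control, as in 2.47% of all genes tested, and the log2 fold change was 0.59 (SE 0.184, adjusted p = 0.398, 0.0996 in DESeq2). In replicates 2 to 4 alone *Cdh1* was the 1 gene of the list that was called, at 0.67 with an adjusted p of 0.044, in a fit that called 855 of the 20187 genes tested. *Mcam*, a surface adhesion molecule of these cells, was at 72.0 to 84.2 CPM in controls and 89.1 to 94.0 CPM in cKO, and *Taf4b*, a TFIID subunit needed to keep the germ line, at 118 to 139.9 and 143 to 152 CPM. Both had the genotypes apart, and their adjusted p-values were 0.418 and 0.437. *Mcam* and *Taf4b* were named for this after their values were seen.

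The largest estimates in that list belonged to genes of low level. *Tspan8*, a surface marker of stem cell activity, had a log2 fold change of 0.82 (SE 0.421) at 1.23 CPM in controls and 2.17 CPM in cKO. *Utf1*, a chromatin factor of primitive spermatogonia, had 0.63 (SE 0.304) and *Neurog3*, a factor of progenitors, 0.56 (SE 0.41), and adjusted p-values were 0.578 to 0.704 for these 3 genes. *T*, under the mean of 1 CPM asked of named genes, went the other way. It had -0.76 (SE 0.712, adjusted p = 0.782) at 0.577 CPM in controls and 0.337 CPM in cKO. The genes with the highest TPM were *Uchl1* at a mean of 595, *Adgra3* at 181, *Tdrp* at 131 and *Itga6* at 73.6 TPM. They had log2 fold changes of 0.16, 0.08, 0.00 and 0.16.

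Ligands, receptors and RET adaptors of the GDNF and FGF niche made a list of 32, with 27 tested and 0 called by edgeR or DESeq2. For *Pspn* and *Fgf9* DESeq2 gave no adjusted p. Estimates above 0 were found for 20 of the 27, with a median of 0.11, and 2 reached an unadjusted p under 0.05, against 8.9% of all genes. *Gdnf* itself, the ligand, was at 10.3 ± 0.757 CPM in controls and 10.3 ± 2.67 CPM in cKO (SD, n = 4). *Csf1r*, the colony-stimulating factor receptor that macrophages also carry, had a log2 fold change of 0.59 (SE 0.222, adjusted p = 0.469). *Gfra4*, a relative of *Gfra1*, was at 9.50 CPM in control replicate 1 and at 3.07 to 4.51 CPM in the other 7 libraries. The kinase *Lyn* and the adaptor *Dok4* had estimates of 0.36 and 0.27, with adjusted p-values of 0.831 and 0.795. *Shc1*, an adaptor that binds RET, was the other gene with an unadjusted p under 0.05 and was at 69.4 to 75.1 CPM in controls and 75.9 to 82.6 CPM in cKO. *Gdnf* and *Shc1* were named after their values were seen.

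Relatives and protein partners of the 10 gene products numbered 32, with 31 tested and 0 called by edgeR or DESeq2. At an unadjusted p under 0.05, which 8.9% of all genes reached, there were 2, *Rbbp7* and *Dicer1*. Of the 31 genes 23 had estimates above 0, and the median was 0.06. The largest estimates were those of *Nanos1*, a NANOS paralog, at 0.38 (SE 0.223), *Sall2* at -0.28 (SE 0.142), *Id3* at 0.22 (SE 0.472) and *Rbbp7* at 0.20 (SE 0.0767). *Nanos1* was at 33.6 CPM in cKO replicate 1 and at 14.9 to 19.5 CPM in the other 7 libraries, the same library in which *Nanos3* was highest. *Rbbp7*, a histone-binding subunit of the repressor complexes that SALL4 recruits, was at 223 to 268 CPM in controls and 270.3 to 308 CPM in cKO.

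Differentiating spermatogonia were represented by 15 genes, all tested and 0 called by edgeR or DESeq2, with 1 (*Stra8*) at an unadjusted p under 0.05, against 8.9% of all genes. Of the 15 genes 13 had estimates above 0, with a median of 0.13. *Kit* was at 115, 86.6, 81.2 and 100.0 CPM in controls and at 144, 98.7, 101 and 97.4 CPM in cKO, with overlapping groups. *Stra8*, the retinoic acid target whose promoter drives iCre here, was at 86.6 to 107 CPM in controls and 103 to 122 CPM in cKO, with a log2 fold change of 0.20 (SE 0.0853, adjusted p = 0.538). *Sohlh1*, a helix-loop-helix factor of differentiation, had an estimate of 0.34 (SE 0.199), *Dmrtb1* -0.29 (SE 0.586) and the retinoic acid receptor *Rarg* 0.23 (SE 0.188). *Dmrtb1* was at 140 CPM in control replicate 1, 95.5 CPM in cKO replicate 1 and 33.6 to 43.2 CPM in the other libraries. The summed level of the list was 658 to 840 TPM in controls and 704 to 907 TPM in cKO. Estimates above 0 made up 86.7% of this list and 85.7% of the other undifferentiated genes.

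The markers of somatic cells bear on the same libraries, and 0 of them were called by edgeR or DESeq2. Among all genes, 8.9% had an unadjusted edgeR p under 0.05. Of the 16 Sertoli cell markers 81.3% had estimates above 0, with a median of 0.08 and 0 at an unadjusted p under 0.05, and the largest were *Ctsl* (0.16), *Tsx* (0.15), *Dhh* (0.15) and *Cldn11* (0.14). The 6 Leydig cell markers had a median of -0.04 and 0 at an unadjusted p under 0.05, with estimates of -0.31 for *Cyp11a1*, -0.22 for *Lhcgr* 0.21 for *Cyp17a1* and -0.09 for *Star*, enzymes, a receptor and a carrier of steroid synthesis. The 10 markers of peritubular, endothelial and blood cells had a median of 0.06 and 1, *Csf1r*, at an unadjusted p under 0.05, followed by *Ptprc* at 0.39, *Cdh5* at -0.20 and *Acta2* at 0.18. The summed Sertoli level overlapped between genotypes, as given above, and the part of Sertoli cells in the *Etv5* values was not tested.

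**Figure D5:**
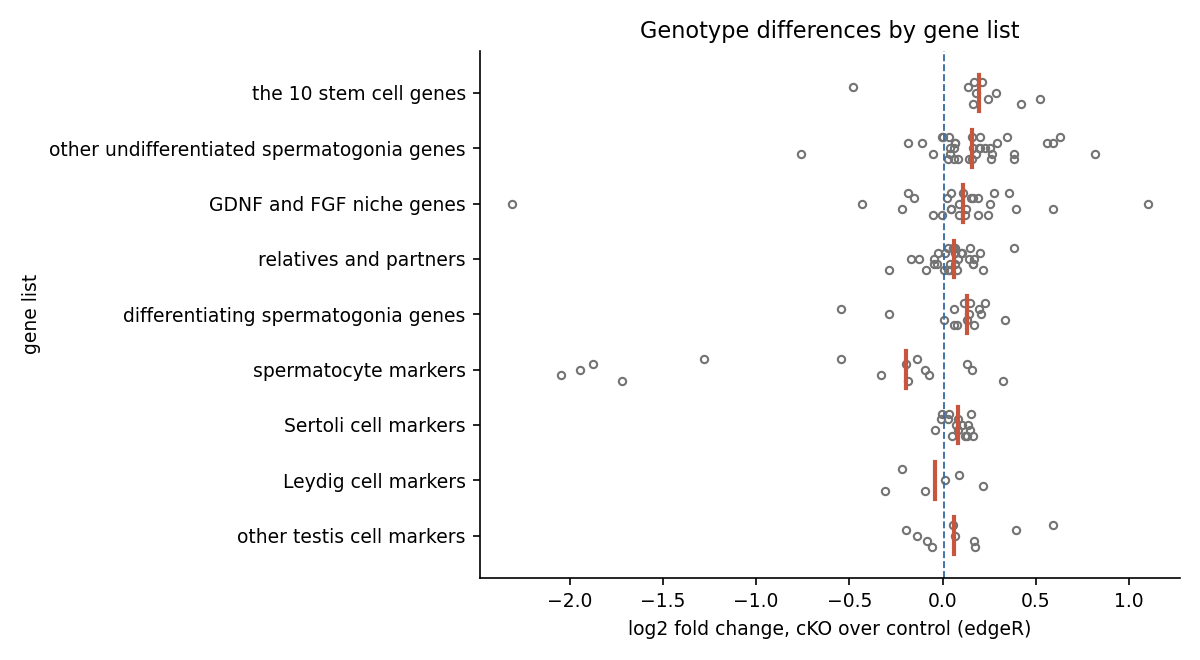
EdgeR log2 fold change (cKO over control) of each tested gene (points) in each gene list, with the list's median as a red bar and the median of all genes tested as a dashed line. Medians lie above the dashed line for the 10 stem cell genes (0.20), other undifferentiated (0.16) and differentiating (0.13) spermatogonia. They also do for niche genes (0.11), Sertoli cell markers (0.08), relatives and partners (0.06) and other testis cell markers (0.06). Spermatocyte (-0.19) and Leydig cell markers (-0.04) have medians below it.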

How the data were processed

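Germ cell RNA of 15-day males was sequenced by the authors as non-stranded polyadenylated libraries, and per the labels and the paper's methods reads were aligned with STAR 2.7.9a to mm39 and quantified with RSEM 1.3.3 on Ensembl 105. The authors deposited RSEM expected counts, not normalized, and TPM, scaled within each library for length and depth. Counts were rounded here, since 6.37% were not whole (tolerance 1e-06), and tested in the 20187 genes with at least 1 TPM in at least 1 library. Genotypes were compared with edgeR 4.0.16 (TMM, robust quasi-likelihood test, no covariate) and p-values were adjusted over all genes by Benjamini and Hochberg, with a threshold of 0.05. DESeq2 1.42.0, DESeq2 size factors in edgeR, limma-trend (limma 3.58.1) on log2(TPM + 1) and log2(TPM + 0.1), no filter, filterByExpr, the replicate number as a block and leaving out each library were alternatives, and replicates 2 to 4 alone were added after the data were seen. Permutation tests used log2(CPM + 1) of single genes. P-values measure the spread between libraries, whose males the labels number separately, and counting floors cover counting error only. On simulated counts of 20187 genes with 200 changed in a comparison of 4 and 4, edgeR recovered 71.6% of changes of 1 and 94.5% of changes of 2 on the log2 scale, and 10.4% of its calls were false. The changed genes were drawn only from those with higher mean counts than *Nanos2* and *Nanos3*. No change smaller than 1 was simulated, so recovery of smaller changes is not known. Positions, overlaps and exon lengths came from GENCODE release 39 on GRCm39. The 10 genes and the gene lists were chosen with earlier results of these data known. *Gdnf*, *Csf1r*, *Etv4* and *Lin28b* each stand in more than 1 list. Named were all 10 genes, *Mgat2*, in each list the genes called by edgeR and the 4 with the largest estimates at a mean of at least 1 CPM, the 4 of highest TPM among other undifferentiated genes, the 5 genes most like the 10 in pattern, and *Sox9*, *Wt1*, *Amh*, *Clu*, *Cyp11a1*, *Kit*, *Stra8*, *Sycp3* and *Piwil1*. Other genes were named after their values were seen. R 4.3.3, Python 3.11.15, pandas 2.3.3, numpy 2.4.6 and scipy 1.17.1 were used.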

Additional observations from a re-analysis of the deposited data

Results flagged for a closer look

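Groups of 4 libraries were searched for a library far from its own group, in CPM and in TPM of the 10 genes and of both genotypes, 40 groups in all, of which chance alone would pick about 1 in 20. In 4 groups the gap of the farthest library to its nearest neighbour took up more of the group's range than Dixon's 95% critical value. *Gfra1* in cKO replicate 4 was at 29.76 TPM, with a gap of 0.852 of the range, and its count in that library was within the range of the others. *Ret* in control replicate 3 was at 6.75 TPM, below the other controls at 8.52 to 8.70 TPM. *Etv5* in cKO replicate 1 was at 54.8 CPM, above the other cKO libraries at 44.0 to 45.2 CPM. *Lin28a* in cKO replicate 1 was at 39.2 TPM, above the other cKO libraries at 26.2 to 27.4 TPM.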

How the results depend on the processing

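*Etv5*, *Gfra1*, *Ret*, *Zbtb16*, *Nanos3*, *Lin28a* and *Bcl6b* kept their direction and their side of the threshold in all 16 alternatives. *Id4* was called in 3: DESeq2 (-0.49, adjusted p = 0.0387), the replicate block (-0.47, adjusted p = 0.00683) and replicates 2 to 4 alone (-0.35, adjusted p = 0.0392), each of which called 1 of the 10 genes in place of 0. Of the 20187 genes tested these 3 settings called 302, 1464 and 855, against 8 in the main test. *Nanos2* changed sign with limma-trend on log2(TPM + 0.1) (-0.021) and without cKO replicate 4 (-0.24 to 0.76 over the libraries left out), and could not be fitted after filterByExpr, and *Sall4* changed sign without cKO replicate 1 (-0.017 to 0.22). The cause was not tested. *Mgat2* was called by DESeq2 (-1.06, adjusted p = 0.0252). Genes called numbered 302 with DESeq2, 35 without a filter, 0 with filterByExpr, 0 with limma-trend on log2(TPM + 1) or on log2(TPM + 0.1), 855 in replicates 2 to 4 alone and 0 to 32 with 1 library left out, against 8; 1796 had an unadjusted edgeR p under 0.05. Without control replicate 4 they were 32, without control replicate 1 24, without cKO replicate 1 15, without control replicate 2 2, without cKO replicate 2 1, and 0 without control replicate 3, cKO replicate 3 or cKO replicate 4. Of the lists, spermatocyte markers had 1 call with DESeq2 (*Piwil1*) and 4 in replicates 2 to 4 alone (*Dmc1*, *Spo11*, *Pgk2* and *Spag6l*), other undifferentiated genes 1 (*Cdh1*) and peritubular, endothelial and blood cell markers 1 (*Myh11*) in replicates 2 to 4 alone. The number of neighbouring pairs that differed in level was 0 to 3 with 1 library left out, against 3, but with 7 libraries the smallest p is 0.0156 and at least 3 of the 9 pairs must reach it to pass, so these counts say nothing about stability.

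The fit with the replicate block called 1464 genes, among them 3 of the other undifferentiated genes (*Cdh1*, *Taf4b* and *Mcam*), 1 of the relatives and partners (*Rbbp7*) and 7 spermatocyte markers. Both genotypes carry the numbers 1 to 4, but no source ties same-numbered males to a litter or day. The deviations of same-numbered libraries from their genotype means correlated at 0.535, 0.145, 0.0389 and 0.197 for replicates 1 to 4, with a mean of 0.229. The mean for differently numbered libraries was -0.07. It is no independent reference, since deviations from a genotype mean cancel out within the genotype and tie it to the first mean. Of the 8 libraries 4 correlated best with their own number. The numbers were not taken as pairs, since replicate 3 was under 0.1.

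Depth limits *Nanos2*, at 2 to 20 counts a library, and *Nanos3*, at 12 to 47. The libraries held Sertoli cell transcripts throughout, and levels per spermatogonium cannot be given from bulk RNA.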
